A study of Mus musculus with 12 samples.

Results

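Splicing factors and RNA-binding regulators were compared in microglia, the resident macrophages of the brain, as 42 genes chosen by name. They were serine/arginine-rich (SR) proteins, heterogeneous nuclear ribonucleoproteins (hnRNPs), tissue-varying regulators, and core spliceosome components with their cofactors. The name tissue-varying follows families such as quaking, muscleblind, CELF and Rbfox and is not claimed for every gene of that group. The choice was made with earlier results of these data known. All 42 were measured. In the whole series 14847 named genes had a gene-level value. The gene-level value was that of the transcript cluster carrying the gene's symbol alone, or the brightest of several such clusters, and it existed for 36 of the 42. The other 6 (Srsf7, Hnrnpa1, Hnrnpa3, Hnrnpf, Tra2a and U2af1) were represented by the median of their exon-level probesets, small groups of probes within an exon.

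The samples were 3 of genotype Lrrc33+/+ (WT) and 3 of genotype Lrrc33-/-, all from mice aged 3 weeks. Lrrc33 is the older symbol of Nrros, which encodes a protein that tethers latent TGF-beta1 to myeloid cells. Cells were sorted from brain by flow cytometry for low CD45, CD11b and CD39 and for lack of Ter119, and their total RNA was hybridised to Affymetrix Mouse Exon 1.0 ST arrays, 1 per sample. The labels call the samples biological replicates without saying how many mice each held and do not describe the allele, so each p-value reflects the variation among these samples alone. The comparison asks whether regulators of exon choice differ between the genotypes.

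SR proteins bind short enhancer elements in exons and usually promote inclusion of the exon they bind, while hnRNPs often bind silencer elements and promote skipping, so that the balance of both shapes which exons a cell keeps. A further layer of RNA-binding proteins, such as the quaking, muscleblind, CELF and Rbfox families, differs in amount between tissues and developmental stages and gives each tissue its own exon choices. Many of these genes also regulate their own messages through exons that lead to decay of the transcript.

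Promoters are shown for Qk, Srsf3 and Srsf9, the members with the largest falls below, and for Srsf11, which rose. RefSeq's table for GRCm38.p6 matched 38 of the 42 members, each with a window from 250 bases before to 50 after the start of the gene. Capitals mark 3 motifs on either strand: GGGCGG (the GC box read by SP1), CCAAT (the CCAAT box) and CCGGAAG (an ETS motif). The windows lie at chr17:10319312-10319611 (minus strand) for Qk, chr17:29032410-29032709 (plus strand) for Srsf3, chr5:115326927-115327226 (plus strand) for Srsf9 and chr3:158036557-158036856 (minus strand) for Srsf11.
Qk: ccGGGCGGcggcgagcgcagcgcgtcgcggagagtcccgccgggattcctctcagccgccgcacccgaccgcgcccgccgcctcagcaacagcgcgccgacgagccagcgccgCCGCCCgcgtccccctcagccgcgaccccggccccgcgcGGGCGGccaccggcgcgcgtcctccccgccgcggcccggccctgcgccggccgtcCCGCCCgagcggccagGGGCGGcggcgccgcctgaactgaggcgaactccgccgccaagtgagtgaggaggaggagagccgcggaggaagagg
Srsf3: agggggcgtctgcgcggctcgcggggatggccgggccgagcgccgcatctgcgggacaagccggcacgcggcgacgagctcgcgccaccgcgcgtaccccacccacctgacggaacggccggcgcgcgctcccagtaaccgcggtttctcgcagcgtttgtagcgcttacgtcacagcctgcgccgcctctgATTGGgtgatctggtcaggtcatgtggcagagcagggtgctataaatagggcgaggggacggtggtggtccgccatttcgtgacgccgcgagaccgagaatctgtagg
Srsf9: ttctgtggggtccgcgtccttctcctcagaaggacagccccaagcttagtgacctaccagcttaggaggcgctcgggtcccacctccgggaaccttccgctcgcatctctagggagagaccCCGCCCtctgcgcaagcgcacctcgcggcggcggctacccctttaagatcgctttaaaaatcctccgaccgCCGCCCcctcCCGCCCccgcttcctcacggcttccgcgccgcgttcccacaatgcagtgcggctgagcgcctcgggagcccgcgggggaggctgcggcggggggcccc
Srsf11: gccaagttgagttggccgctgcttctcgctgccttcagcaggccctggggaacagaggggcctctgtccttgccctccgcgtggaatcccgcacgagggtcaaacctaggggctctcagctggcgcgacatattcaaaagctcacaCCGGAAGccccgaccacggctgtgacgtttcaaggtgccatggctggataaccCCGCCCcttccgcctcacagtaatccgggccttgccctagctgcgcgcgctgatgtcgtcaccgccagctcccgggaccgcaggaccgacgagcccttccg

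The Qk window held 57 CpG dinucleotides and 5 GC boxes, Srsf9 held 32 CpG and 3 GC boxes, and Srsf3 held 42 CpG, a CCAAT box and no GC box. Srsf11 held 25 CpG with 1 GC box and 1 ETS motif. Over the 38 matched members the median was 25 CpG, and over the 14 matched members that were lower it was 33, against 7 in the first listed window of each of 27025 genes. GC boxes stood in 24 of 38 member windows (63.2%) and in 35.9% of all windows, and CCAAT boxes in 20 (52.6%) and 37.9%. The ETS motif stood in 6 member windows (15.8%), none of them among the 14 that were lower, and in 9.12% of all. Searches for other motifs on both strands found AAGATGGC (YY1) in 2 members against 2.88% of all windows, and GAGGAAGT (PU.1) in 2 against 3.28%. The NRF1 motif stood in 1 against 0.977% and GTCTAGAC (SMAD) in 1, that of Srsf1, against 0.211%. TTTGGCGC (E2F) stood in none of the members' windows and in 0.537% of all. GC boxes and CpG counts share letters, and a match describes these windows only.

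The 6 arrays had gene-level medians between 6.70 and 6.76 on the log2 scale of the deposited values. Nrros itself was not lower in the samples labelled Lrrc33-/-: its cluster stood at 9.81 ± 0.18 in WT and 9.86 ± 0.03 in those samples (log2 mean and SD, n = 3 each), with a limma adjusted p of 0.759. Those samples are therefore called KO-labelled, and each direction below rests on the labels. WT replicate 3 stood apart in sex-linked RNA, with Xist at 7.96 and Eif2s3y at 7.89, where the other samples had 12.2 to 12.5 and 2.75 to 3.09. The microglial label was checked on marker lists. Homeostatic microglia markers were lower in the KO-labelled samples for 12 of 12 genes, with a list mean of 12.27 to 12.30 in WT and 9.63 to 9.74 in KO-labelled samples. Border-associated macrophage markers were higher for 8 of 9 (8.76 to 8.89 and 11.27 to 11.38) and cell cycle genes for 19 of 20 (6.21 to 6.33 and 7.35 to 7.56). Monocyte and neutrophil markers were lower for 4 of 11, with list means of 6.64 to 7.51 and 5.71 to 6.87. In limma, 1 of 7 astrocyte markers was lower, with list means of 6.96 to 7.47 in WT and 6.71 to 6.88 in KO-labelled samples, and 1 of 6 endothelial markers, with 5.81 to 6.32 and 5.56 to 5.77. The groups did not overlap in either list mean. Of the oligodendrocyte markers 1 of 7 was higher (6.96 to 7.05 and 6.98 to 7.18). Of lymphocyte markers 0 of 6 and of erythroid markers 0 of 2 passed, with 2 and 0 at an unadjusted p below 0.05. The part of these shifts in the members' differences was not tested, and in sorted cells measured in bulk, fewer cells of a type and less RNA per cell cannot be told apart.

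At the gene level 16 of the 36 members (44.4%) passed limma at a Benjamini-Hochberg adjusted p of 0.05, where 28.4% of all 16755 transcript clusters did. The direction was mostly downward: 14 members were lower in the KO-labelled samples and 2 were higher, against 14% and 14.4% of all clusters. As the list was chosen with earlier results known, these shares are a description and not a test. The median difference (KO-labelled minus WT) over the 36 was -0.16 on the log2 scale, and over all named genes -0.02. In 25 of the 36 the samples of both groups did not overlap, which 42.3% of all clusters shared. The changes were modest in size. The largest was 1.85-fold, and 0 of the 36 members reached 2-fold, which 5.11% of all clusters did. At the lower cut, 8 members (22.2%) differed by at least 0.5, against 13.7% of all named genes. The median absolute difference was 0.17 over the 36 members and 0.13 over all named genes. Standard errors of the members' differences ran from 0.05 to 0.13. The calls fell to 11 without WT replicate 3, and also to 11 without WT replicate 2. Srsf11, Tra2b, Hnrnpl, Celf1 and Mbnl1 lost their calls in both cases, and no other sample left fewer.

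**Figure D1:**
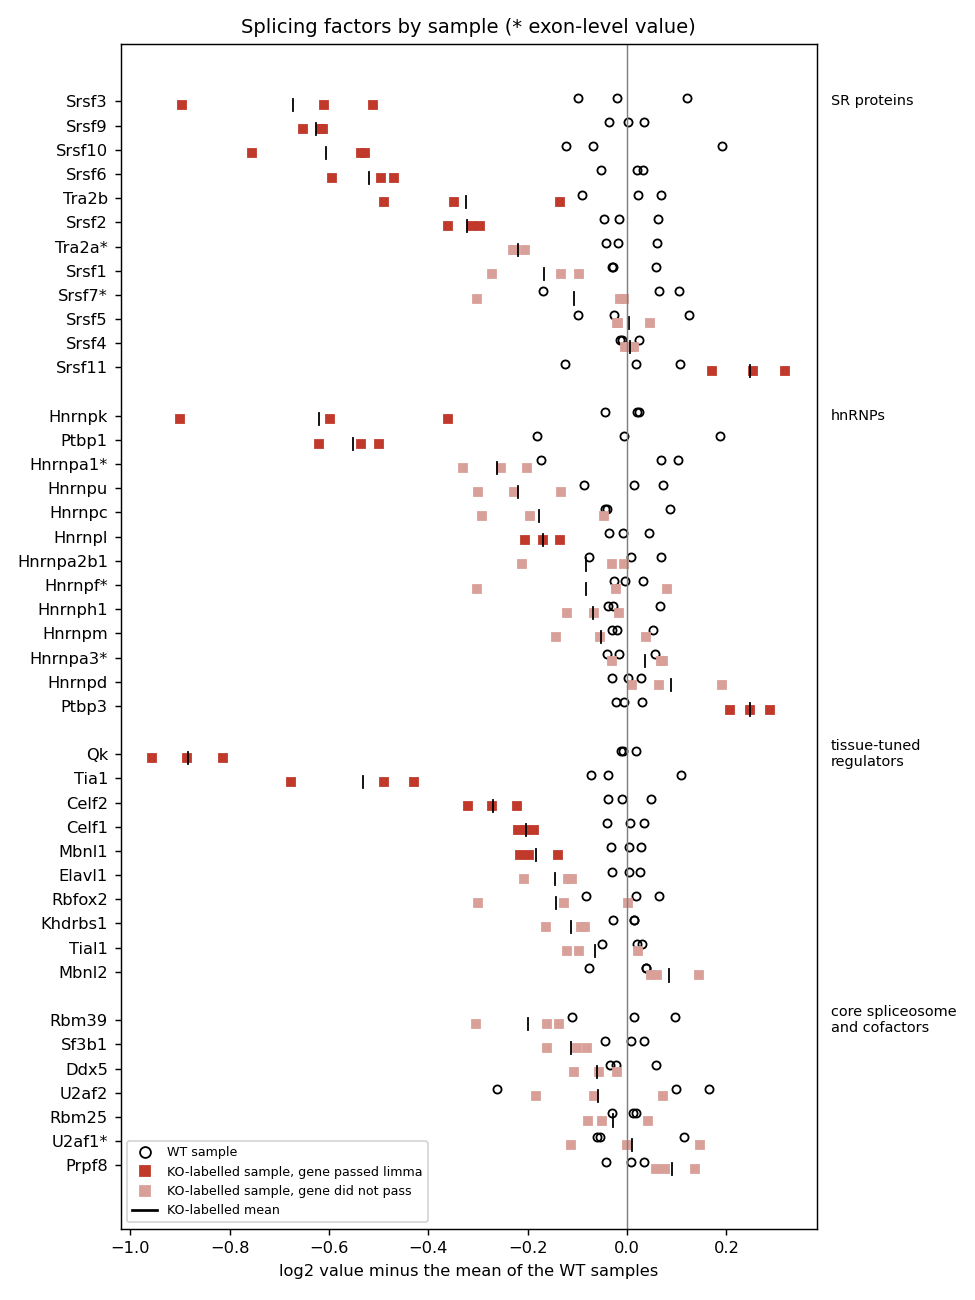
Log2 value of each of the 42 members in every sample, minus the gene's WT mean. Circles are the 3 WT samples, squares the 3 KO-labelled samples (dark where the gene passed limma, pale where it did not), vertical ticks the KO-labelled means, and an asterisk marks the 6 genes with exon-level values only. Most KO-labelled squares of the SR, hnRNP and tissue-varying groups lie left of the WT circles, and Srsf11 and Ptbp3 lie right of them.

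Of the 12 SR proteins, 6 were lower, 1 was higher and 5 did not pass, with a median difference of -0.27. Srsf3, a small SR protein that also takes part in mRNA export and microRNA processing, read 8.81, 8.89 and 9.03 in WT and 8.40, 8.01 and 8.30 in the KO-labelled samples. Every KO-labelled sample was below every WT sample, and KO-labelled replicate 2 was the lowest. Srsf3 was 1.59-fold lower (log2 difference -0.67, SE 0.11, limma adjusted p = 0.0036). Srsf9, a repressor of some exons despite its SR domain, read 9.45, 9.42 and 9.38 in WT against 8.77, 8.80 and 8.81. The groups lay far apart and the samples within each close together. Srsf9 was 1.54-fold lower (-0.63, SE 0.05, limma adjusted p = 0.000105).

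Srsf10, an SR protein that turns from activator to general repressor of splicing when it loses its phosphates, read 8.83, 8.78 and 9.09 in WT and 8.37, 8.15 and 8.37 in KO-labelled samples. The groups did not overlap, with a difference of -0.61 (SE 0.10, limma adjusted p = 0.0044). Srsf6, known for its role in exon choice in Mapt (tau), read 10.39, 10.31 and 10.38 against 9.89, 9.76 and 9.86, again without overlap. It was 1.43-fold lower (-0.52, SE 0.06, limma adjusted p = 0.00057). Srsf2, the SC35 protein of nuclear speckles, was lower by less: WT samples read 11.40, 11.37 and 11.47 and KO-labelled samples 11.05, 11.10 and 11.12. The groups were still separate (difference -0.32, SE 0.05, limma adjusted p = 0.0041).

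Tra2b, a sequence-specific activator of exons rich in GAA repeats, had the same difference as Srsf2 (-0.32) with a larger error (SE 0.10, limma adjusted p = 0.046). Its samples read 10.18, 10.06 and 10.22 in WT and 10.02, 9.66 and 9.81 in KO-labelled samples, which left KO-labelled replicate 1 just below the lowest WT sample. The Tra2b call was lost on leaving out any sample but KO-labelled replicate 1, with adjusted p up to 0.127. Srsf11, an SR-related protein, was the SR member that rose. It read 9.54, 9.31 and 9.45 in WT and 9.75, 9.61 and 9.69 in KO-labelled samples, with a narrow gap between the groups. The rise was 1.19-fold (0.25, SE 0.08) and lay at the edge of the threshold (limma adjusted p = 0.0495), which it missed on leaving out any sample but WT replicate 1 (adjusted p up to 0.148).

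Srsf1, the founding SR protein and the closest relative of Srsf9 in the list, differed by -0.17 (95% interval -0.32 to -0.01) and did not pass (limma adjusted p = 0.106). Srsf4 and Srsf5, which resemble Srsf6 in their domains, differed by 0.01 (interval -0.11 to 0.12) and 0.00 (interval -0.16 to 0.17). Srsf7 and Tra2a, both from exon-level values, differed by -0.11 and -0.22, and neither passed (limma adjusted p = 0.650 and 0.147). Tra2a samples nevertheless did not overlap between groups, at 9.39 to 9.49 in WT and 9.20 to 9.23 in KO-labelled samples.

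Of the 13 hnRNPs, 3 were lower, 1 was higher and 9 did not pass (median difference -0.08). Hnrnpk, which binds C-rich RNA and also acts in transcription and translation, read 9.30, 9.37 and 9.37 in WT and 8.99, 8.45 and 8.75 in KO-labelled samples. No KO-labelled sample reached the WT range, but they spread more widely than WT. The difference was -0.62 (SE 0.13, limma adjusted p = 0.0103), and at the exon level it was -0.23 and did not pass (adjusted p = 0.171).

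The polypyrimidine tract-binding proteins moved in opposite directions. Ptbp1, the main repressor of neuronal exons outside neurons, read 10.48, 10.28 and 10.11 in WT and 9.67, 9.75 and 9.79 in KO-labelled samples. WT varied more than the KO-labelled samples, and the groups did not overlap. Ptbp1 was 1.46-fold lower (-0.55, SE 0.10, limma adjusted p = 0.0050). Ptbp3, its relative best known in blood cells, read 11.18, 11.16 and 11.21 in WT and 11.47, 11.39 and 11.43 in KO-labelled samples, all higher than WT. The rise was 1.19-fold (0.25, SE 0.05, limma adjusted p = 0.0101).

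Hnrnpl, which binds CA repeats and silences an exon of Ptprc (CD45), was lower by a small amount (-0.17, SE 0.05, limma adjusted p = 0.048), and its call was lost on leaving out any 1 of the 6 samples (adjusted p up to 0.153). Hnrnpu, a nuclear scaffold protein, had the same direction (-0.22, SE 0.07) and missed the threshold narrowly (limma adjusted p = 0.0524), although its groups did not overlap. It passed in 5 of 14 alternatives, among them the fit without KO-labelled replicate 1. Hnrnpc, which keeps cryptic exons out of messages, differed by -0.18 (limma adjusted p = 0.146). The remaining gene-level hnRNPs Hnrnpa2b1, Hnrnpd, Hnrnph1 and Hnrnpm lay between -0.08 and 0.09, with overlapping groups. Hnrnpa1, Hnrnpa3 and Hnrnpf, with exon-level values only, differed by -0.26, 0.04 and -0.08 and did not pass. Of the 6 members with exon-level values only, 0 passed limma, and 2 (Hnrnpa1 and Tra2a) had an unadjusted p below 0.05. With the mean over probesets in place of the median, Hnrnpa1 passed as lower (-0.52, limma adjusted p = 0.0137), and no other of these members did. Hnrnpa3 carried 97 probesets, and genes of this family have many processed pseudogenes, so its values are uncertain.

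Of the 10 members of the tissue-varying group, 5 were lower, 0 were higher and 5 did not pass limma, with a median of -0.16. The largest fall of all members was that of Qk (quaking), an RNA-binding protein of the STAR family known for myelination and for macrophage maturation. It read 12.10, 12.07 and 12.08 in WT and 11.27, 11.20 and 11.13 in KO-labelled samples. The samples of each group lay close together and far from the other group. Qk was 1.85-fold lower (-0.88, SE 0.06, limma adjusted p = 3.6e-05).

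Tia1, a stress granule protein that helps U1 bind weak splice sites, read 8.79, 8.83 and 8.97 in WT and 8.43, 8.19 and 8.37 in KO-labelled samples. The groups did not overlap (-0.53, SE 0.08, limma adjusted p = 0.0030). Its paralog Tial1 differed by -0.06 with overlapping groups. The CELF proteins, which bind GU-rich RNA, were both lower, Celf2 with a difference of -0.27 (SE 0.05, limma adjusted p = 0.0091) and Celf1 with one of -0.20 (SE 0.05, limma adjusted p = 0.020). Celf1 lost its call without WT replicate 2, WT replicate 3 or KO-labelled replicate 1, with adjusted p up to 0.0793.

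Mbnl1, a muscleblind protein that drives adult exon choices in muscle, was lower (difference -0.18, SE 0.05, limma adjusted p = 0.034), a call that was lost on leaving out any 1 sample (adjusted p up to 0.117). At the exon level the difference between the medians over its probesets was 0.07 (adjusted p = 0.802), the opposite sign. Of its 26 probesets with a group mean at or above the median signal, 19 were lower. The median of their own differences was -0.16. Mbnl2 differed by 0.08 and did not pass. Elavl1 (HuR), which stabilises AU-rich messages, differed by -0.15 (limma adjusted p = 0.0868), Rbfox2 by -0.14 and Khdrbs1 (Sam68) by -0.11, and none of these passed.

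Of the 7 core spliceosome members and cofactors, 0 passed limma, and 1 of them, Rbm39, had an unadjusted p below 0.05. Sf3b1, the branch-site subunit of U2, differed by -0.11 (interval -0.24 to 0.01). Prpf8, the scaffold at the centre of the spliceosome, differed by 0.09 (interval -0.03 to 0.21). Their samples did not overlap between groups, in opposite directions, but the differences were small. U2af2, the larger subunit of the factor that reads the polypyrimidine tract, differed by -0.06 with a wide interval (-0.35 to 0.23), and U2af1, the smaller subunit, by 0.01 at the exon level (interval -0.24 to 0.26). Ddx5, an RNA helicase, differed by -0.06 (interval -0.19 to 0.07) and Rbm25 by -0.03 (interval -0.16 to 0.10). Rbm39, a cofactor related to U2af2, differed by -0.20 (interval -0.38 to -0.02, limma adjusted p = 0.0974).

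Relatives within the list were set side by side as the difference between 2 genes in each sample, in 7 pairs picked after their values were seen. Ptbp1 minus Ptbp3 was -0.70, -0.88 and -1.11 in WT and -1.80, -1.64 and -1.64 in KO-labelled samples, a change of -0.80. The corresponding change was -0.47 for Tia1 minus Tial1, -0.53 for Srsf6 minus Srsf4, -0.52 for Srsf6 minus Srsf5, -0.46 for Srsf9 minus Srsf1 and -0.27 for Mbnl1 minus Mbnl2. Celf1 minus Celf2 changed by 0.07. The choice of pairs fixes most of these directions, so they are a description and no test is given. These differences compare changes, not levels, since probes of different genes are not on a common scale.

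The exon-level probesets, treated as another reading of the 6 arrays, since the series states 6 samples, and not as independent evidence, gave a gene value for 41 members, all but Tra2b. On these, 7 members (17.1%) passed limma, where 15.9% of 22184 genes did. All 7 were lower and 0 were higher, against 7.53% and 8.38% of those genes. They were Srsf2, Srsf3, Srsf6, Srsf9, Srsf10, Ptbp1 and Qk, and each was also lower at the gene level. Without WT replicate 1 the count was 4, and without WT replicate 3 it was 6. Of the 35 members with both values, 30 had the same sign in both. Of the 15 of these called at the gene level, 14 kept their sign and 7 kept their call, and none passed in the opposite direction. Qk differed by -1.13 (SE 0.09) at the exon level, Srsf10 by -0.73 (SE 0.09) and Srsf9 by -0.64 (SE 0.10). Ptbp3 had an exon-level difference of 0.29 (limma adjusted p = 0.0757) and Tia1 one of -0.32 (limma adjusted p = 0.0689), both close to their gene-level direction and short of the threshold.

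**Figure D2:**
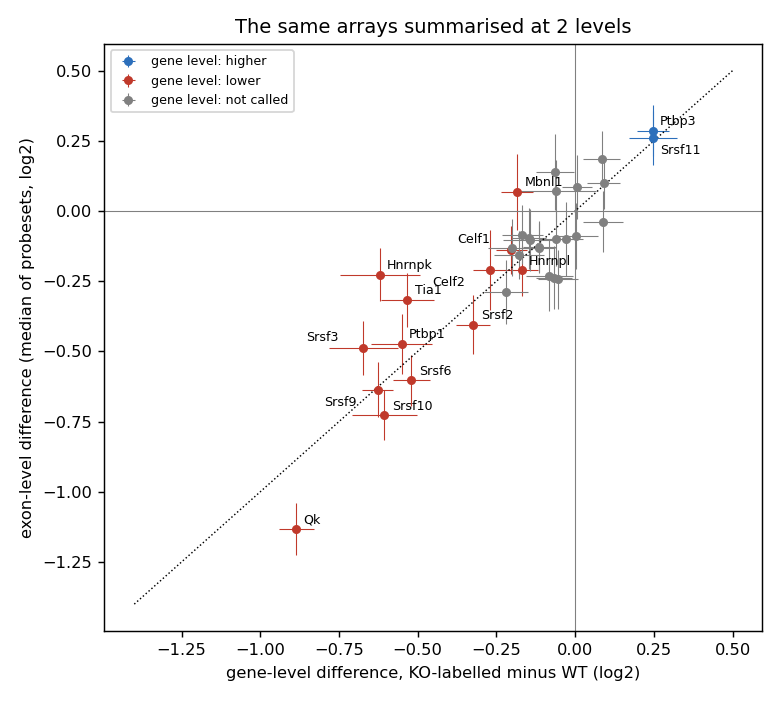
Difference between KO-labelled and WT samples (log2) for the 35 members with both values, from gene-level clusters on the x axis and from the median of exon-level probesets on the y axis. Bars are standard errors, colours give the gene-level call, and the dotted line marks equal differences. Qk lies lowest in both, and Mbnl1 lies left of 0 on the x axis and above 0 on the y axis.

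Single probesets were read for whether a change ran along the gene. Of 1150 member probesets, 1107 had a higher group mean at or above the median signal, so some entered through 1 group alone. Of these 1107, 49 were called lower and 2 higher (4.61% in all). Among such probesets of all genes 10.4% were called, 4.73% lower and 5.69% higher. The 51 called probesets belonged to 14 members. All 26 such probesets of Qk, out of 27, were lower, 22 of them past limma, from -1.70 to -0.19. All 29 such probesets of Srsf10, out of 34, were lower, 8 past limma. So were all 15 of Srsf2 with 3 past limma and all 7 of Srsf9 with 2. Srsf3 had 18 of 18 and Ptbp1 29 of 29 probesets lower, with 0 and 1 past limma, and Hnrnpk 34 of 35. Ptbp3 had 18 of 18 higher and Prpf8 45 of 49 higher, none past limma. Probesets of a gene share the same 6 samples and are not replicates.

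Exon usage within a gene was tested with limma's diffSplice, which asks whether the probesets of a gene differ from each other in their change. It called 19 of 41 members (46.3%), where 31.6% of 16692 genes were called. Simes' form of the test called 21, against 33.3%. Members carry many probesets, and the share of genes called rose with their number: 50.3% of genes with 20 to 39 probesets were called, and 11 of 27 members of that size. With 10 to 19 probesets 35.4% of genes and 4 of 8 members were called, with 40 or more 60.2% and 3 of 4, and with 3 to 9 18.8% and 1 of 2. When each probeset kept its own variance, an alternative added after the data were seen, 5 of 41 members (12.2%) were called against 10.4% of genes: Srsf11, Hnrnpa1, Hnrnpm, Qk and Elavl1. In simulated data in which 200 genes changed, each in 1 probeset, diffSplice made more false calls than its threshold allows. The simulated probesets were drawn independently, while real probesets of a gene share samples, and far more genes were called in the real data. The simulation therefore does not give the share of false calls there. When both group means of a probeset had to reach the median signal (5.82), 16 members were called, and Srsf10, Elavl1 and Rbm39 lost their calls (adjusted p = 0.185, 0.0769 and 0.0517). Leaving out single samples gave 12 members (without WT replicate 1) to 22, and 17 without WT replicate 3, with 11 of the 19 called each time.

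By role, diffSplice called 5 of 11 SR proteins, 6 of 13 hnRNPs, 6 of 10 tissue-varying regulators and 2 of 7 core members. It called 31.6% of all genes and 50.3% of those with 20 to 39 probesets, so these counts do not set the roles apart. In Qk the least lowered probeset (5134580) differed by -0.19 and the most lowered relative to the gene (5179953) by -1.70. Hnrnpm, known for exons that switch between epithelial and mesenchymal cells, did not pass as a gene (-0.05 at the gene level, -0.24 at the exon level). Of its 31 probesets in the test 4 passed limma as lower. Its most lowered probeset, 4555532, is not among them and read 6.56, 6.06 and 6.06 in WT and 3.05, 3.34 and 5.27 in KO-labelled samples. The KO-labelled samples were all lower and spread widely (-2.34, SE 0.54, limma adjusted p = 0.0578), with a mean of 3.89, below the median of all probesets. This probeset entered the test through its WT mean of 6.23 alone. In Elavl1, probeset 5327218 read 6.18, 6.13 and 6.45 in WT against 4.54, 4.66 and 5.09, without overlap (-1.49, SE 0.20, limma adjusted p = 0.0058). It too entered through its WT mean alone (6.25, against 4.76), and Elavl1 is one of the calls lost when both means had to reach the median. The rest of Elavl1 ranged up to 0.35.

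Srsf11 held probesets that moved both ways, 4469518 by 0.73 (limma adjusted p = 0.0369) and 4335879 by -0.60 (limma adjusted p = 0.0816). Mbnl1 probeset 5562275 rose from 9.26, 9.40 and 9.41 in WT to 10.21, 10.34 and 10.03 in KO-labelled samples. That rise (0.84, SE 0.15, limma adjusted p = 0.0244) ran against most other Mbnl1 probesets, 19 of 26 of which were lower. Hnrnpa1 probeset 5439083 differed by -1.05 (limma adjusted p = 0.0163) while 5101287 of the same gene differed by -0.05. Srsf10 probeset 5110080 fell most within its gene (-1.88, limma adjusted p = 0.0240), to a KO-labelled mean of 5.33 that lay below the median, and it also entered through WT alone (7.20). Srsf6 probeset 5135482 differed by 0.30 while the gene was lower, with overlapping groups. The positions of these probesets were not used here, so they are not tied to exons.

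**Figure D3:**
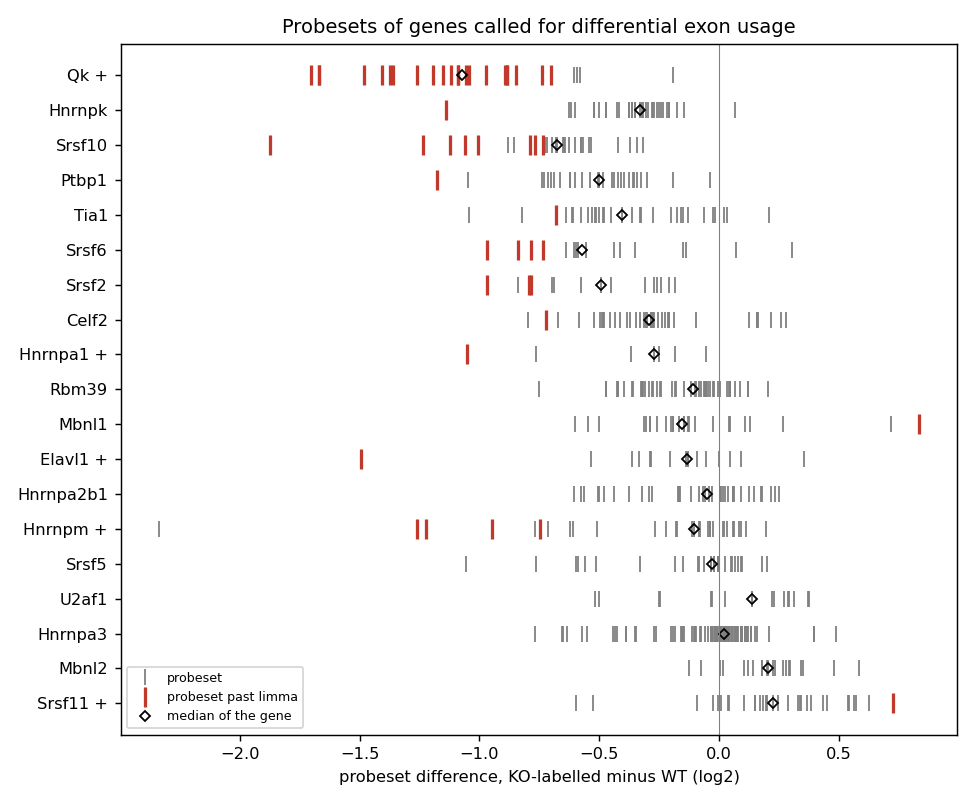
Difference between KO-labelled and WT samples (log2) for every probeset whose higher group mean reached the median signal, in the 19 members called by diffSplice. Each tick is a probeset (red and thick where it passed limma on its own), the diamond is the gene's median, and a plus after the name marks the 5 genes also called with each probeset's own variance. Ticks of Qk lie between -1.70 and -0.19, and those of Hnrnpm spread from -2.34 to 0.19.

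Other genes of RNA processing, in lists around the members, were compared to show whether the falls extended to the machinery at large. Of 126 measured genes, 24 were lower and 11 higher (27.8%, against 28.4% of all clusters), with a median difference of -0.02, as over all named genes. Among 53 snRNP and spliceosome components 5 were higher and 4 lower (median 0.00). Usp39 (-0.57, SE 0.08) and Bud31 (-0.46, SE 0.08), both spliceosomal proteins, were lower, while Lsm3 (0.43, SE 0.06), of the U6 ring, and Isy1 (0.40, SE 0.10) were higher. Isy1 lost its call without any 1 of the WT samples. Of 8 SR protein kinases and importers, Srpk2 rose by 0.28 (SE 0.05) and Dyrk1a was lower (-0.22, SE 0.05), the latter losing its call without WT replicate 1 or 2. Other SR-related proteins gave 1 higher and 3 lower of 22: Scaf11 (-0.36), Rsrc2 (-0.34), Luc7l2 (0.28) and Scaf8 (-0.18). Luc7l2 and Scaf8 each lost the call on leaving out any of 5 samples, and Rsrc2 without WT replicate 1. On exon-level gene values Usp39, Lsm3, Srpk2, Dyrk1a, Scaf11, Rsrc2, Luc7l2 and Scaf8 lost their calls, while Bud31 and Isy1 kept theirs.

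Of 36 other hnRNPs and RNA-binding regulators 13 were lower and 4 higher, against 14% and 14.4% of all clusters, with a median of -0.04 against -0.02 over all named genes. Khdrbs3 (SLM2), a relative of Khdrbs1, read 7.82, 7.71 and 6.81 in WT and 5.90, 6.16 and 5.78 in KO-labelled samples (-1.50, SE 0.26, limma adjusted p = 0.0047). Every KO-labelled sample was lower, and WT replicate 3 stood between its group and the KO-labelled samples. Rbpms (-0.92, SE 0.13) and Hnrnpab (-0.61, SE 0.05) were also lower, and Rbms1 was higher (0.90, SE 0.07). These 4 calls held in all 13 alternatives, in which Rbpms ranged from -1.67 to -0.80 and Khdrbs3 from -2.05 to -1.32. In exon junction complex and nonsense-mediated decay genes 3 of 7 were lower and 0 higher in limma (median -0.18): Eif4a3, the complex's RNA anchor (-0.50, SE 0.12), Smg9 (-0.29, SE 0.05) and the helicase Upf1 (-0.25, SE 0.05). All 3 lost their calls on exon-level gene values, and Eif4a3 also without KO-labelled replicate 2.

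Of 12 measured regulators best known from neurons and epithelia, 2 were lower and 0 higher in limma. Elavl4 (HuD) read 7.27, 7.44 and 7.71 in WT and 4.92, 5.08 and 5.03 in KO-labelled samples (-2.46, SE 0.11, limma adjusted p = 8.4e-06). Rbfox1 read 7.75, 7.71 and 7.63 against 5.80, 5.74 and 5.84 (-1.91, SE 0.06, limma adjusted p = 1.6e-06). Both gaps were wider than the spread within either group. Over 13 alternatives both calls held, with differences of -2.56 to -1.29 for Elavl4 and -1.94 to -1.72 for Rbfox1. Of the neuron markers 0 of 10 passed limma, 2 had an unadjusted p below 0.05, and their list mean was 5.88 to 5.98 in WT and 5.88 to 6.08 in KO-labelled samples. The part of RNA from other cells in the Elavl4 and Rbfox1 differences was not tested.

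**Figure D4:**
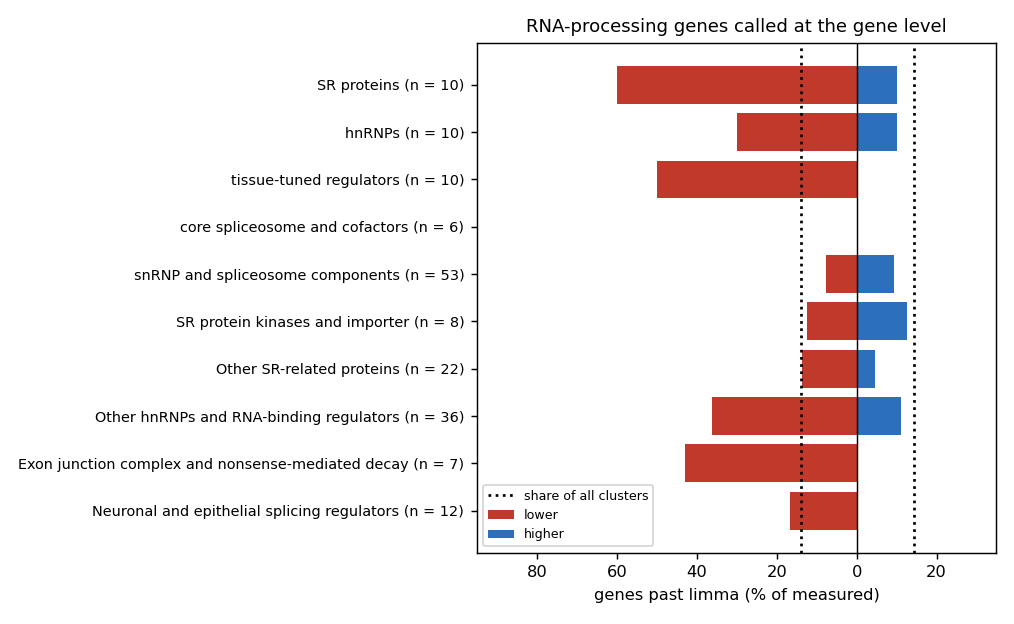
Share of measured genes called by limma at the gene level in each RNA-processing list, lower to the left and higher to the right, with the number of genes measured after each name. Dotted lines mark the shares of all clusters, 14% lower and 14.4% higher. SR proteins reach furthest to the left, with 6 of 10 gene-level members lower, and core spliceosome members have no bar.

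Genes known for regulated alternative exons were tested the same way, as places where a change in exon choice could be read. diffSplice called 25 of 38 (65.8%), where 31.6% of all genes were called, and 9 when each probeset kept its own variance, against 10.4% of all. Many of these genes carry 20 or more probesets. Of all genes with 20 to 39 probesets 50.3% were called, and of those with 40 or more 60.2%. The lowest adjusted p-values belonged to Itsn1, Gnas, Macf1 and Pfkfb3. Itsn1, an endocytic scaffold, ranged from -0.07 to 3.43 over 61 probesets, 45 of them called higher, with a gene-level difference of 2.46. Gnas, the stimulatory G protein alpha subunit, ranged from -2.00 to 0.22 over 45 probesets, 16 called lower. Macf1, a cytoskeletal linker, had 108 of 119 probesets called lower, from -1.50 to -0.09, and Pfkfb3, a regulator of glycolysis, 29 of 32, from -2.85 to 0.26. With each probeset's own variance Macf1 lost its usage call (Simes adjusted p = 0.128), while Itsn1, Gnas and Pfkfb3 kept theirs. Calls were more frequent where the gene itself changed: 86.7% of all genes whose median changed by at least 1 were called by diffSplice, against 20.2% of those that changed by less than 0.25.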

How the data were processed

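The deposited values are log2 signals, which the authors made from the arrays with RMA (background correction, normalization to a common distribution, probe summary), per the submitters' processing notes. The notes name oligo and limma for the exon level, with no version. RMA shrinks differences of dim genes. The array's genome build is not given in the sources used here. Symbols came from the platform annotation, updated through RefSeq's GRCm38.p6 gene table. Of 16755 clusters 14996 had 1 symbol, 1019 several and 740 none, and of 1236087 probesets 321091, 7796 and 907200. Only features with 1 symbol were named.

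Differences (KO-labelled minus WT) were tested with limma 3.58.1 in R 4.3.3 (lmFit and eBayes, two-sided, no covariate), Benjamini-Hochberg adjusted over the whole table, at 0.05. Usage was tested with diffSplice on probesets whose higher group mean reached the median of all, in genes with at least 3. The number of arrays limits the precision. Members and lists were chosen with earlier results of these data known. Named genes were all members, Nrros, up to 4 called genes per RNA-processing list by size, and the 4 genes of the alternative exon list with the lowest diffSplice p. In members called by diffSplice the most deviating probesets were considered, and those with the widest departures are described, a choice made after their values were seen. Protein sequences were not used here.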

Additional observations from a re-analysis of the deposited data

How the results depend on the processing

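Of the 16 members called at the gene level, 7 (Qk, Srsf2, Srsf3, Srsf6, Srsf9, Srsf10 and Ptbp1) kept their call in every alternative run, and 11 kept it without any 1 sample. Leaving out a sample gave 11 to 13 members called, 1 to 2 higher and 10 to 12 lower, a median of -0.17 to -0.14, 4 to 6 members called at the exon level and 12 to 22 for usage. In the other RNA-processing lists it gave 3 to 9 higher (11 with all samples; 3 without WT replicate 2, 5 without WT replicate 3, 6 without WT replicate 1 or KO-labelled replicate 3, 7 without KO-labelled replicate 1) and 16 to 24 lower. It gave 20 to 23 genes known for alternative exons. The test without moderated variance called 1 member higher. Gene values from exon-level probesets called 7 members, 0 higher and 7 lower, and left 5 higher and 9 lower in the other lists. They reversed Mbnl1 (0.068), although the median of its probesets' own differences was -0.16. The cause of these changes was not tested. The mean over probesets in place of the median called 14 members at the exon level, Hnrnpa1 among them. With each probeset's own variance usage was called in 5 members and in 9 genes known for alternative exons. Hnrnpu gained a call in 5 of 14 alternatives (without KO-labelled replicate 1, the replicate block, the dimmest clusters left out, trend and robust variance, and the mean of all clusters). The labels do not say whether replicate numbers pair the samples. Same-numbered deviations correlated at r = -0.03, -0.01 and 0.04 across genes and differently numbered ones at -0.03 to 0.04, which cannot settle it. With the replicate number as a block 14 members were called at the gene level, 5 at the exon level and 21 for usage. Signals near the array's floor limit what can be read from Rbfox2 and other dim genes.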

Other observations

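A few members had a second, dimmer transcript cluster that carries their symbol alone. The second cluster of Qk (6853662) stood at 5.97 ± 0.31 (log2, SD, n = 3) in WT and 4.68 ± 0.40 in KO-labelled samples, a difference of -1.29 (SE 0.23, limma adjusted p = 0.0049). That of Celf2 (6884520) differed by -0.65 (SE 0.07, limma adjusted p = 0.0005), more than its brighter cluster. That of Celf1 (6879008) differed by -0.30 and did not pass (limma adjusted p = 0.0787), and that of Rbm25 (6796538) differed by -0.03. KO-labelled replicate 2 was the lowest KO-labelled sample in 20 of the 36 gene-level members. The same share over all clusters was not computed, so whether this is particular to the members was not tested.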
